A study of Mus musculus with 8 samples.

Results

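Gene expression was compared between a mouse epicardial culture given PDGFBB, hTGFb1 and bFGF for 2 days and one given PDGFBB alone for 24 h. The comparison was chosen by the titles of these 2 arrays, out of 8 in the series, and each array carried RNA from 1 pool of at least 3 cultures. Both were wild type epicardial cultures on a mixed C57 background. E12.5 hearts were explanted, epicardial cells grew out for 3 days, and the cells stayed in culture for 2 more days once the hearts had been taken away. The 3 factors were present through those 2 days, at 20 ng/ml PDGFBB, 10 ng/ml hTGFb1 and 25 ng/ml bFGF, while the other culture had 20 ng/ml PDGFBB for its last 24 h. The remaining wild type cultures, used here only as context, had PDGFBB for 12 h, vehicle for 2 days, or were labelled control culture with vehicle as the treatment. The title of the control culture does not say wild type, and it is counted among the wild type cultures here. With 1 pool a side there is no replicate, so no difference below has a test, an error or a p-value.

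The epicardium is the mesothelial sheet around the heart. Some of its cells lose their epithelial form, move into the muscle wall and become fibroblasts and the mural cells of coronary vessels. PDGFBB signals through receptor tyrosine kinases that are needed for this step. TGF-beta signals through serine/threonine kinase receptors and Smad proteins and is a classical inducer of epithelial-mesenchymal transition, matrix genes and smooth muscle genes. Basic FGF signals through FGF receptors and the ERK kinase cascade, and in many mesenchymal cells it opposes part of the TGF-beta contractile programme.

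Levels are log2 bead intensities after background correction and normalization of all 8 arrays together, and differences are 3 factors minus PDGFBB at 24 h on the log2 scale. Genes counted as measured had a detection p below 0.01 with the 3 factors, with PDGFBB at 24 h or with both. They were called where the difference was also at least 1 (a 2-fold change) and the brighter array detected the gene. Of 19057 genes with a probe, 9507 were measured, and 573 of them (6.03%) were called higher with the 3 factors and 734 (7.72%) lower, 13.7% in all. The called genes reached a difference of at least 2 in 72 cases upward and 147 downward, and of at least 3 in 16 and 37. No probe was detected on the dimmer array for 164 of the higher and 285 of the lower genes. Their levels there are background, so such genes are given a bound on the fold and no exact difference, and for 89 and 183 of them that bound is under 2-fold. At the edge of the rule, Mmp11 lay just inside at 1.0027 and Rap1gap just outside at 0.9995 among higher genes, and Sub1 just inside and Cd248 just outside among lower genes, with sizes of 1.0002 and 0.9989.

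**Figure D1:**
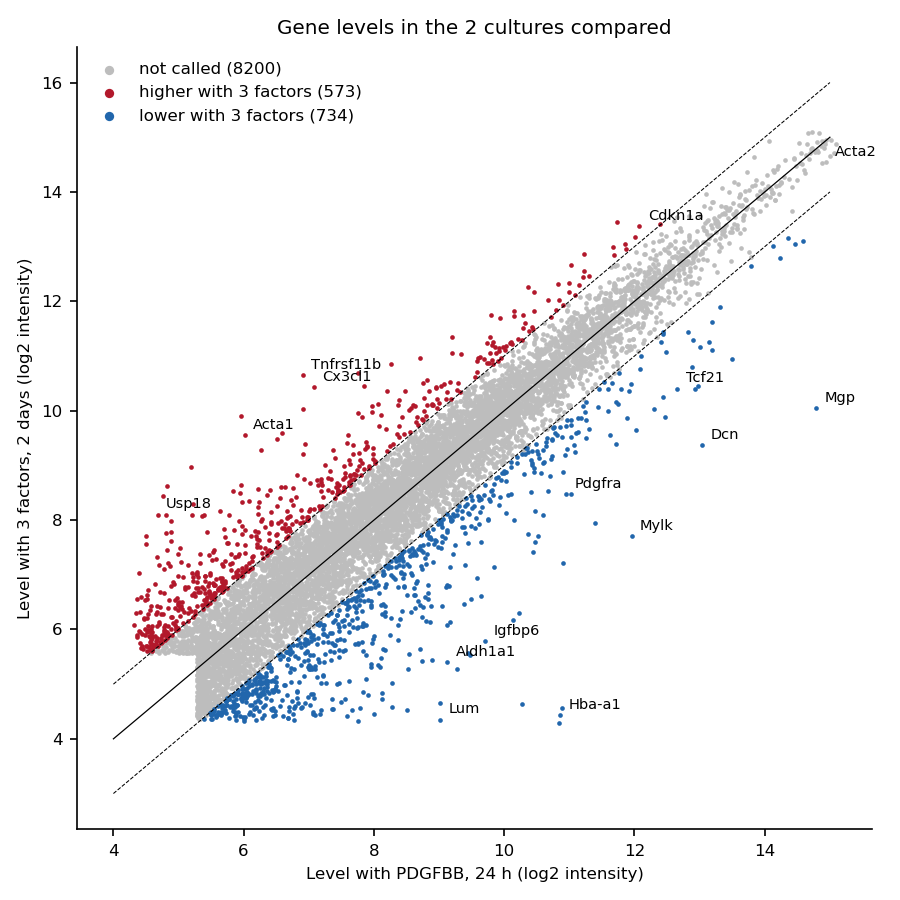
Level of each of the 9507 measured genes with the 3 factors (vertical axis, log2 intensity) against its level with PDGFBB for 24 h (horizontal axis, log2 intensity), 1 array each; the solid line marks equal levels and the dashed lines a difference of 1. The 573 red genes lie above the upper line and the 734 blue genes below the lower one, with Mgp, Mylk and Hba-a1 among the farthest below.

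The 2 arrays differ in more than the factors. Exposure was 2 days against 24 h, and the authors' processed values place the 3-factor array in a normalization set with the vehicle culture and the hearts, and the PDGFBB array in another set with the control culture. Factors, time and set cannot be told apart between the 2 arrays alone. The same rule called 10.6% of measured genes between the vehicle and control cultures (3.34% higher, 7.23% lower), which lie in the same 2 sets, but 0.366% between PDGFBB at 24 h and at 12 h and 1.23% between PDGFBB at 24 h and the control culture, which lie within a set. The 3 factors against the vehicle culture, also within a set, gave 10.3% (5.29% higher, 5.05% lower), and against PDGFBB at 12 h 13.7% (5.69% higher, 7.99% lower). For some genes a within-set double difference is therefore given, the 3 factors minus vehicle less PDGFBB at 24 h minus control, which over all measured genes passed 1 upward in 7.4% and downward in 5.79%. This double difference passed 1 in the direction of the call for 294 of the 573 higher genes and 279 of the 734 lower genes, lay between 0 and 1 in that direction for 244 and 332, and had the other sign for 35 and 123. It contains the difference on which the genes were called, so nothing is read from these shares. Among the genes named in what follows, its sign was opposite to the call for Adgre1, Angptl4, Anpep, Cd14, Cd200, Cd53, Cspg4, Eif2s3y, Emcn, Fgf10, Fgfr1, Hey2, Hoxd4, Il1rn, Mmp12, Myocd, Nppa, Rian, Saa3, Serpina3n, Smad1 and Sox9. Of these, Anpep, Emcn, Fgf10 and Mmp12 were detected neither with the 3 factors nor with vehicle. Their 3 factors minus vehicle is a difference of background levels, so nothing is read from that sign.

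**Figure D2:**
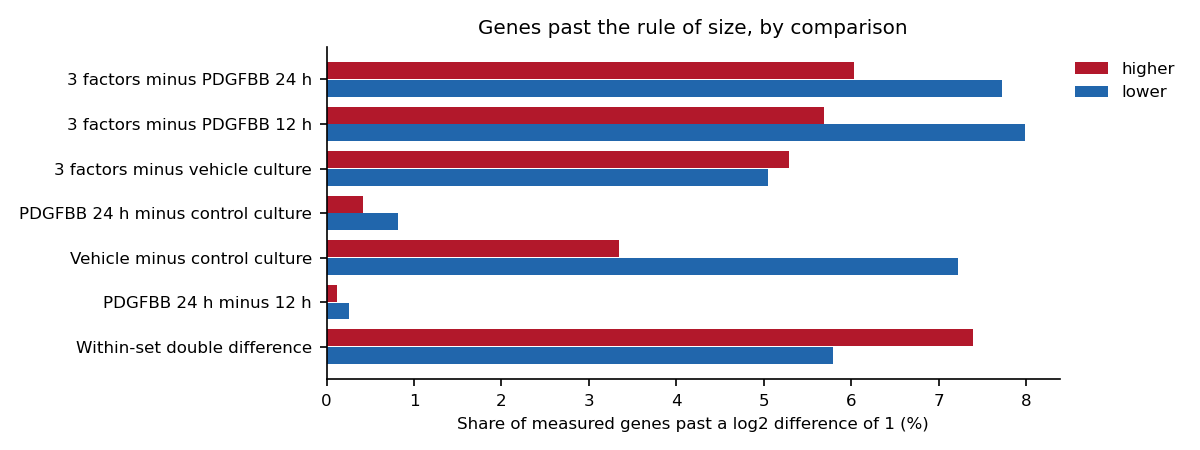
Share of measured genes past a log2 difference of 1 (horizontal axis, percent), higher in red and lower in blue, for 6 comparisons of single arrays and the double difference of 4. The 3 factors against PDGFBB for 24 h gave 6.03% and 7.72%, while PDGFBB at 24 h against 12 h gave 0.115% and 0.251%.

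Scaling also moved the balance of the calls. The median difference over all measured genes was 0.03 in the values used here, -0.18 with median centring and -0.28 in the authors' processed values. The split of higher to lower genes was accordingly 573 to 734 here, 356 to 1026 with median centring and 147 to 865 in the authors' values. Of the genes called here, 145 higher and 399 lower ones passed under all 6 other ways of processing these arrays. Of the 169 called genes that belong to a gene list, 101 passed under all 6, 27 under 4 or 5 and 41 under 3 or fewer. Of these list genes, those named here that passed under 3 or fewer are Adgre1, Aldh1a3, Anpep, Anxa8, Cdc6, Cenpf, Cldn1, Crabp2, Cspg4, Dll1, Dsg2, Egr2, Fgf10, Fgfr1, Hey2, Id4, Il1rn, Jag2, Ltbp2, Mmp11, Myocd, Nfatc1, Nppa, Sema3e, Skil, Slc16a3, Slc7a11, Smad1, Spry4 and Tgfbr1.

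Cell composition was checked with marker lists. Of the 22 epicardial and mesothelial markers with a probe, 12 were detected with the 3 factors and 17 with PDGFBB at 24 h, and Upk3b, Upk1b, Msln and Tcf21 were detected in both. Red cell RNA differed: none of 9 erythroid genes with a probe was detected with the 3 factors, against 4 with PDGFBB at 24 h. The alpha globin gene Hba-a1 had a level of 4.43 with the 3 factors and 10.85 with PDGFBB at 24 h, and 8.79 to 13.01 in the other 3 wild type cultures. Macrophage markers were present in both, with 17 of 19 detected with the 3 factors and 18 with PDGFBB at 24 h, at mean levels over the measured markers of 9.81 and 9.72. Of 10 neural and Schwann markers none was detected in either culture. Myh7, Pecam1, Cdh5 and Ptprc, defining genes of ventricular muscle, endothelium and leukocytes, were also not detected in either, but other genes of these types were. Of 23 cardiomyocyte genes with a probe, 11 were detected with the 3 factors and 12 with PDGFBB at 24 h. Of 20 endothelial and endocardial genes, 5 and 10 were. Sex-linked genes differed between the pools: Xist stood at 6.08 with the 3 factors and 4.32, not detected, with PDGFBB at 24 h but 8.67 at 12 h, and the Y-linked Eif2s3y at 6.34 and 7.82. The part of these differences in the results below was not tested. In such bulk RNA, fewer cells of a type and less RNA per cell cannot be told apart.

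The genes that stood farthest apart upward included secreted proteins, motors and enzymes. Among those detected on both arrays, Tnfrsf11b, which encodes osteoprotegerin, the decoy receptor of RANK ligand, had a level of 10.65 with the 3 factors and 6.91 with PDGFBB at 24 h, a difference of 3.75. The uncharacterised AA467197 differed by 3.96 and the skeletal alpha actin gene Acta1 by 3.54. Acta1 had a level of 9.56 with the 3 factors against 6.01 with PDGFBB at 24 h and 5.90 to 6.24 in the other wild type cultures, so that the 3-factor culture alone was high. The chemokine genes Cx3cl1 and Ccl17 differed by 3.35 and 3.12, the cathepsin gene Ctsw by 3.02 and Cthrc1, a secreted protein of remodelling matrix, by 3.01. Lurap1l, the kinesin motor Kif1a, the hyaluronan synthase Has2, the cytokine Il1b and Sdcbp2 followed, between 2.97 and 2.69.

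Other higher genes were not detected with PDGFBB at 24 h, so that only a bound on the fold can be given. It is the 3-factor level against the lowest level of any detected probe on the dimmer array, or the level of that gene itself if above it. Srpx2, a secreted sushi-repeat protein, was at least 12.8-fold higher. Rgs4, which ends G-protein signals, was at least 10.2-fold higher, and Fermt1, which encodes the integrin activator kindlin-1, at least 8.87-fold. Megf10, Usp18, Cyp4f18, the kinesin Kif5c and Nox4 had bounds between 8.05 and 6.48. All 20 of these leading higher genes passed under all 6 other ways of processing.

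The lower genes went further. Mgp, the matrix Gla protein that restrains calcification, had a level of 10.04 with the 3 factors and 14.78 with PDGFBB at 24 h, a difference of -4.74. Mylk, the kinase that phosphorylates myosin light chain in smooth muscle, stood at 7.70 and 11.96, and its 2 other measured probes differed by -4.38 and -4.20. The sphingomyelinase gene Smpd3 and the IGF-binding protein gene Igfbp6 differed by -3.93 and -3.92, and decorin, Dcn, by -3.67. Mmp17, the glycogen-targeting phosphatase subunit Ppp1r3c, the actinin-binding Pdlim3, the adhesion protein Amigo2 and Fam13c lay between -3.07 and -3.02. In each of these 10 genes the 3-factor culture was the lowest of the 5 wild type cultures.

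Saa3 and Cd200 behaved otherwise. Saa3, an acute-phase serum amyloid gene, had a level of 7.95 with the 3 factors and 11.40 with PDGFBB at 24 h, but 6.26 in the vehicle culture, and its double difference was 2.91, opposite in sign to the difference of -3.44. Cd200, a membrane protein that restrains myeloid cells, stood at 7.22 and 10.90, with 6.48 in the vehicle culture. Its double difference was 0.19, and its 2 other measured probes differed by only -1.65 and -0.16.

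Another 8 lower genes were named by their fold bounds because no probe was detected with the 3 factors. Stc1, encoding the hormone stanniocalcin 1, had a level of 4.29 with the 3 factors and 10.84 with PDGFBB at 24 h and was at least 38.6-fold lower. Angptl7, a secreted angiopoietin-like protein, was at least 40.1-fold lower, but the vehicle culture was low too, at 6.03. The heparin-binding growth factor gene Ptn and the retinal dehydrogenase gene Aldh1a1 had bounds of 14.7 and 11.8. Cyp2s1 and Fam180a were likewise detected with PDGFBB at 24 h and not with the 3 factors. Hba-a1 and Hbb-y, globin genes with bounds of 39.0 and 26.1, belong with the red cell RNA described above.

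**Figure D3:**
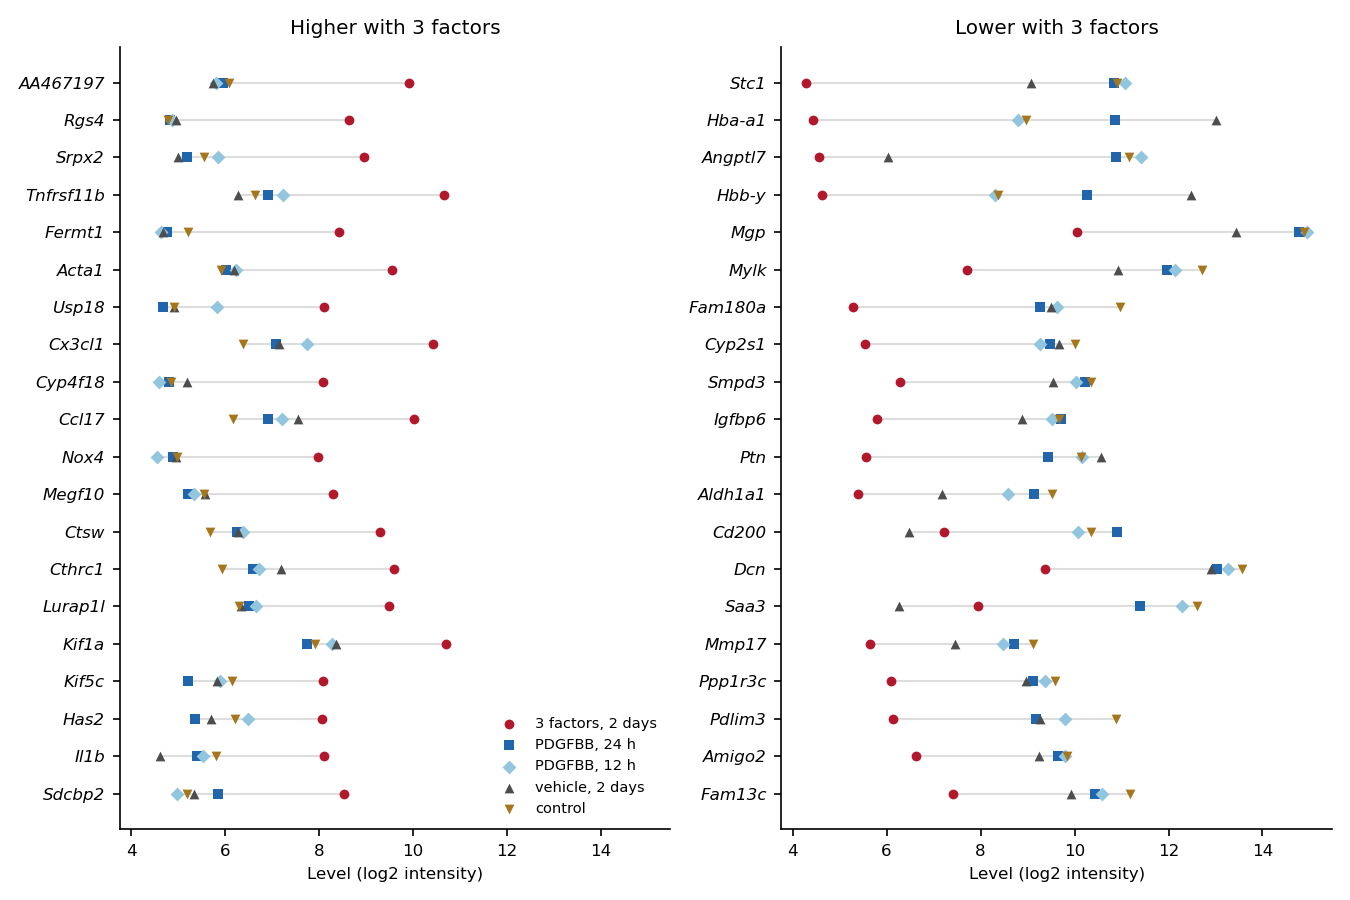
Levels (horizontal axis, log2 intensity) of the 20 leading higher genes and the 20 leading lower genes in the 5 wild type cultures, 1 array each, with red circles for the 3 factors and blue squares for PDGFBB at 24 h. The red circle stands alone to the right for the higher genes, while for Saa3, Cd200 and Angptl7 the vehicle culture lies on the low side as well.

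Targets and feedback genes of TGF-beta were tilted upward. Of 21 measured, 8 were called higher and none lower, and their median difference was 0.66, between 0.29 and 0.93 under the alternatives. Nox4, an oxidase that makes hydrogen peroxide and is a known Smad target, had a level of 7.98 with the 3 factors and 4.88 with PDGFBB at 24 h, where it was not detected, and was at least 6.48-fold higher. Itga11, the collagen-binding integrin alpha 11, stood at 9.28 and 7.37, a difference of 1.91. Its double difference was 3.55, with levels of 6.21 in the vehicle and 7.85 in the control culture. Against PDGFBB at 12 h Itga11 differed by 0.93, without a call. Pmepa1, which feeds back on Smad signalling, had a level of 10.10 against 8.60, and the cell cycle inhibitor Cdkn1a and Angptl4 differed by 1.29 and 1.35, although the double difference of Angptl4 was -0.93. Skil and Cdkn2b were called near the threshold, at 1.13 and 1.04, but the other measured probe of Skil differed by -0.53. Ltbp2, not detected with PDGFBB at 24 h, was at least 1.42-fold higher. Abundant targets without a call were not all alike. The matrix target Ccn2 was at 14.92 and 14.90, but its other measured probe differed by 0.53, and Tgfbi was at 11.87 and 11.85. Timp1 stood at 14.65 and 13.83, a difference of 0.81, and its other measured probe differed by 0.86. The inhibitory Smad gene Smad7 was not detected in either culture, but its only probe lay between 4.28 and 4.37 on all 8 arrays, so nothing is read from it.

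Among TGF-beta and activin ligands, inhibitors and receptors, 4 of 19 measured genes were called higher and none lower, with a median difference of -0.03 that changed sign between alternatives. The 4 included Fst and Fstl3, while the related Fstl1 differed by -0.03. Fstl3, which binds activin, had a level of 8.57 with the 3 factors and 6.23 with PDGFBB at 24 h, and Fst, follistatin itself, had 8.59 and 6.75. Inhba, which encodes the activin A subunit that both proteins bind, stood at 11.76 and 9.80, but also at 10.62 in the vehicle culture, and its double difference was 0.10. The receptor gene Tgfbr1 differed by 1.10, and Tgfbr2 differed by -0.47.

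BMP signalling genes leaned the other way, with 1 of 13 called higher and 4 lower and a median of -0.34 (-0.60 to -0.15 under the alternatives). Bmp4, a BMP ligand, had a level of 9.83 with the 3 factors and 11.03 with PDGFBB at 24 h. Of the Id genes, direct BMP targets that block differentiation factors, Id3 was called lower at the threshold, with a double difference of -1.07, and Id4 was not detected with the 3 factors and at least 1.62-fold lower, while Id1 and Id2 lay at -0.94 and -0.64 without a call. Smad1, the BMP signal transducer, differed by -1.10 with a double difference of 0.45. The single higher gene was Bmp1, at 1.23, a procollagen protease in spite of its name.

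Receptors for the growth factors in the medium were lower in part. Pdgfra, the receptor of the PDGF alpha type that marks fibroblast progenitors, had a level of 8.47 with the 3 factors and 10.95 with PDGFBB at 24 h, against 10.21 to 11.61 in the other wild type cultures, so that only the 3-factor culture was low. Pdgfrb, the receptor that mural cells use, stood at 6.99 and 6.13 and was not called. Pdgfb, which encodes the ligand itself, was at 9.88 and 7.82, and lay between 7.62 and 7.76 in the other cultures. Fgfr2 differed by -1.63 and passed under all 6 other ways. Fgf1 was at least 6.57-fold lower but was also low in the vehicle culture, at 5.42. Fgfr1 was called lower with a double difference of the other sign. Fgf10 was called lower too, but was detected neither with the 3 factors nor with vehicle. The adhesion proteins Flrt2 and Flrt3, which bind FGF receptors, differed by 2.26 and 1.49.

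Feedback targets of the ERK cascade, on which both receptor families act, were mostly not called. None of 16 measured genes was called higher and 1 was called lower, beside 6.03% and 7.72% of all measured genes. Their median of -0.05 changed sign between alternatives. The lower gene was Spry4, an inhibitor of receptor tyrosine kinase signalling, at 5.58 with the 3 factors and 6.65 with PDGFBB at 24 h. Dusp6, the phosphatase that inactivates ERK, stood at 12.35 and 11.94, and the ETS factor genes Etv4 and Etv5 differed by -0.40 and -0.17. Immediate-early genes were split, with Junb and Egr2 called higher, at 1.11 and 1.01, and Fos and Egr1 called lower, at -1.39 and -1.14.

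Regulators of epithelial-mesenchymal transition did not move as a set. Of 15 measured transcription factor genes, 3 were called higher and 2 lower. Snai1, Snai2, Zeb1, Zeb2 and Twist1, the factors that repress epithelial genes, differed by 0.73, -0.02, -0.01, 0.15 and -0.08. Meox1, a mesodermal homeobox gene, had a level of 7.56 with the 3 factors and 4.50 with PDGFBB at 24 h, where it was not detected, and was at least 4.86-fold higher. Scx, the tendon factor scleraxis, differed by 1.64. Sox9, the cartilage and valve factor, differed by 1.34, but its other measured probe differed by 0.62 and its double difference was -0.39. The lower genes were Tcf21, which epicardial cells need to become fibroblasts, at 10.40 and 12.66, and Prrx1, a mesenchymal homeobox gene, at 5.60 and 7.53.

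Smooth muscle contractile genes were called about as often as other genes. Of 18 measured, 1 was called higher and 2 lower, beside 6.03% and 7.72% of all measured genes. Their median of -0.02 changed sign between alternatives. Acta2, smooth muscle alpha actin, had a level of 14.55 with the 3 factors and 14.95 with PDGFBB at 24 h, and Tagln, Myl9 and Tpm2 differed by 0.15, -0.38 and 0.19. Mylk and Pdlim3, named above, were the lower genes, and Myocd, the coactivator that drives this programme, differed by 1.32 but stood at 6.98 in the vehicle culture, above its 6.84 with the 3 factors. Against the vehicle culture, which lies in the same set, none of 17 measured contractile genes was called higher with the 3 factors and 5 were called lower. Over all measured genes that comparison called 5.29% higher and 5.05% lower. The vehicle culture was itself high for this list. Against the control culture it had 6 of 17 called higher and 2 lower, with a median of 0.58. None of 20 measured actin and focal adhesion genes was called in either direction, with Zyx at 15.07 and 14.66 and Vcl at 11.43 and 12.23.

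Matrix genes differed in both directions. Of 19 measured collagen genes, 2 were called higher and 6 lower. Col7a1, the anchoring fibril collagen, had a level of 10.46 with the 3 factors and 7.85 with PDGFBB at 24 h, and Col11a1 differed by 1.71, with double differences of 0.82 and 0.62. Lower were the fibril collagen Col3a1, at 6.80 and 9.15, the beaded filament collagen Col6a1, at 6.93 and 9.59, and Col8a2, at 5.75 and 7.97. Col1a1 stood at 13.38 and 13.28, Col4a1 at 14.13 and 14.21 and Col4a2 at 13.85 and 14.16, and none of them was called.

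Small leucine-rich proteoglycans, which space collagen fibrils, were lower as far as they were measured apart from biglycan. Lum, lumican, had a level of 4.35 with the 3 factors and 9.01 with PDGFBB at 24 h and was at least 10.9-fold lower. Ogn differed by -2.50 beside the -3.67 of Dcn, and Prelp and Fmod, not detected with the 3 factors, were at least 2.30-fold and 1.69-fold lower, while Bgn differed by 0.16. Eln, elastin, was also not detected with the 3 factors and at least 4.82-fold lower. In contrast, Has2 and Vcan, which make hyaluronan and the large proteoglycan versican that binds it, stood at 8.07 and 8.16 with the 3 factors, against 5.36 and 5.64 with PDGFBB at 24 h. Fn1, Sparc and Tnc differed by -0.25, -0.01 and 0.28. Over the 21 measured genes of this list, 3 were called higher and 7 lower.

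Matrix proteases split into 3 called higher and 6 lower of 21. Mmp10, stromelysin 2, was at least 5.68-fold higher, and Adamts4, which cleaves aggrecan and versican, differed by 2.15. Adamts1 differed by -2.35, and the plasminogen activator genes Plat and Plau by -1.61 and -1.19. Mmp12, the macrophage elastase, was at least 5.38-fold lower but was at 4.48 in the vehicle culture, as low as its 4.45 with the 3 factors. Integrin genes had 3 of 11 called higher and none lower. Besides Itga11, the fibronectin receptor subunits Itga5 and Itgb1 had levels of 10.37 and 10.11 with the 3 factors and 8.48 and 8.06 with PDGFBB at 24 h, and vehicle levels of 9.21 and 9.15 between them.

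Epicardial and mesothelial markers leaned lower. Of 17 measured, 8 were called lower and 1 higher, with a median of -0.66 (-1.13 to -0.43 under the alternatives). Upk3b, a uroplakin of mesothelial cells, had a level of 10.39 with the 3 factors and 12.93 with PDGFBB at 24 h, and 12.60 to 13.20 in the other wild type cultures. Its relative Upk1b differed by -2.27, Msln, mesothelin, by -2.02 and Bnc1, basonuclin, by -1.57. Gpm6a and Lrrn4 were not detected with the 3 factors and were at least 4.27-fold and 5.24-fold lower. The keratin genes Krt8, Krt18 and Krt19 were not called, with differences of 0.31, 0.78 and -0.03. Their double differences were -1.20, -0.56 and -2.59. These contain the vehicle culture, which lay 1.51, 1.35 and 2.56 above the control culture, where Krt19 was not detected. Against vehicle alone the 3 factors differed by -0.10, 0.82 and -1.46. Aldh1a2, the retinoic acid enzyme of the epicardium, was not called either, at 0.55 with a double difference of 0.12. Anxa8 was called higher, at 1.03. Wt1 was not analysed here.

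Epithelial junction genes showed no single direction, with 2 of 16 called higher and 2 lower. Cldn3 and Cldn15, tight junction proteins, were at least 5.07-fold and 7.74-fold lower. Cldn1 and the desmosomal cadherin Dsg2, not detected with PDGFBB at 24 h, were at least 1.40-fold and 1.48-fold higher. Retinoic acid genes had Aldh1a3 and the binding protein Crabp2 called higher and Aldh1a1 and Rarres2 lower out of 10.

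Fibroblast genes were one-sided, with 8 of 12 called lower and none higher and a median of -2.21. That median ranged from -2.46 to -0.28 under the alternatives. Thy1, a surface glycoprotein of fibroblasts, had a level of 10.44 with the 3 factors and 12.97 with PDGFBB at 24 h, with 12.72 to 12.83 in the other wild type cultures. Col3a1, Pdgfra, Tcf21, Dcn and Lum are members too, so this list and the matrix and epicardial lists share genes. S100a4 differed by -2.17, while Vim and Col1a1, broad mesenchymal genes, differed by 0.24 and 0.09. Against the vehicle culture 7 of 12 were called lower and 1 higher.

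Valve and cartilage mesenchyme genes had 4 of 6 measured members called higher, namely Vcan, Scx, Sox9 and Nfatc1, and none lower. Only these 6 of the 16 list genes with a probe were measured. The cartilage genes Col2a1, Acan and Comp were among those detected in neither culture. The median of the measured members was 1.25, and -0.01 under the alternative that moved it farthest. Of the pericyte genes, Cspg4 was called higher, at 1.02, with a double difference of -0.43. Anpep, not detected with the 3 factors, was at least 1.23-fold lower with a double difference of 0.28, and Rgs5 was not detected in either culture.

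**Figure D4:**
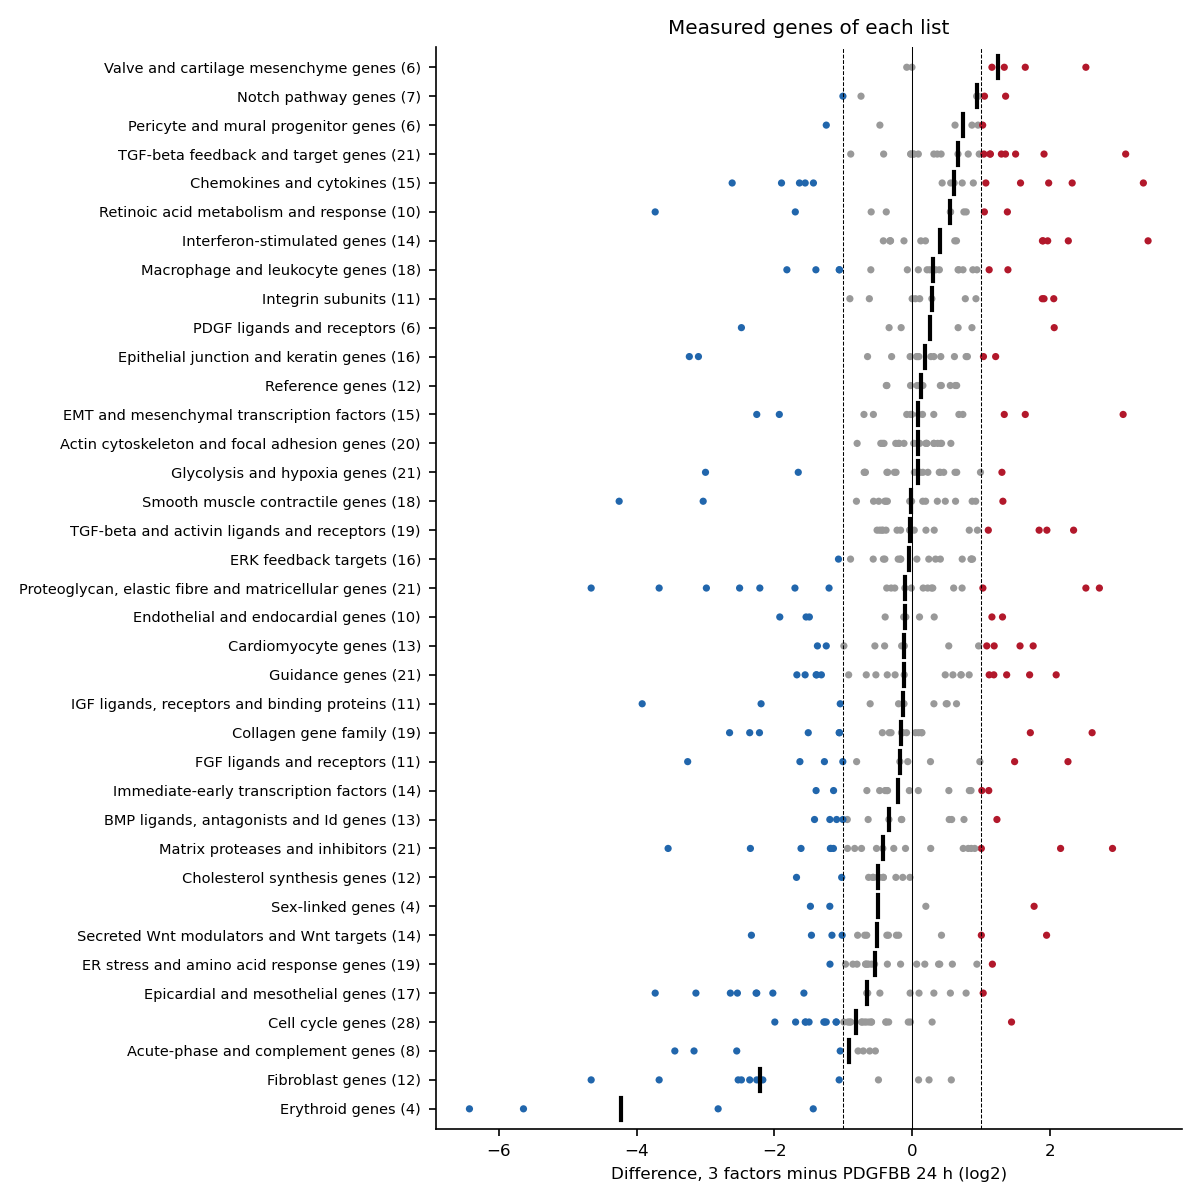
Differences of the measured genes of each list (horizontal axis, log2, 3 factors minus PDGFBB at 24 h), with red points called higher, blue points called lower, grey points not called, black bars at the median, and the number measured in brackets. Fibroblast, acute-phase and cell cycle genes lie mostly to the left, with medians of -2.21, -0.92 and -0.81, and TGF-beta targets to the right, with a median of 0.66.

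Interferon-stimulated genes included 5 called higher and none lower of 14 measured. Usp18, which removes the ubiquitin-like protein ISG15 from its targets, had a level of 8.10 with the 3 factors and 4.68 with PDGFBB at 24 h, where it was not detected, and was at least 7.06-fold higher. Ifit3, an antiviral RNA-response protein, stood at 8.35 and 6.08, Isg15 itself at 7.68 and 5.72, Gbp3, a guanylate-binding protein, at 7.35 and 5.47. Rsad2, viperin, had 6.96 with the 3 factors, was not detected with PDGFBB at 24 h and was at least 3.20-fold higher. The vehicle and control cultures were at or near the PDGFBB values, but the 12 h PDGFBB culture was not: it had 6.99 for Rsad2, so that gene differed by -0.0261 when 12 h was used instead, and 7.19 for Ifit3. Of the transducers, Irf1 differed by 0.19 and Stat2 was not called. The list median was 0.40, and -0.01 under the alternative that moved it farthest.

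Interferon-activated factors bind a response element built on 2 GAAA blocks. The 250 bases before the gene start, from RefSeq (GRCm38.p6), are shown for 3 of the called genes because each holds GAAA, any 2 bases and GAAA again on either strand, in capitals where they match, with overlapping matches merged. Isg15 lies at chr4:156200819-156201068 on the minus strand, Rsad2 at chr12:26456453-26456702 on the minus strand and Ifit3 at chr19:34583279-34583528 on the plus strand.
Isg15: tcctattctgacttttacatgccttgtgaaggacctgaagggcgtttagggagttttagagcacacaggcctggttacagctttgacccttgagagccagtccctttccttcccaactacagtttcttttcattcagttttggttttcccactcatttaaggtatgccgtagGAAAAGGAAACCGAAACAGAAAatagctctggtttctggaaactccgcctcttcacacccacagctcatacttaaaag
Rsad2: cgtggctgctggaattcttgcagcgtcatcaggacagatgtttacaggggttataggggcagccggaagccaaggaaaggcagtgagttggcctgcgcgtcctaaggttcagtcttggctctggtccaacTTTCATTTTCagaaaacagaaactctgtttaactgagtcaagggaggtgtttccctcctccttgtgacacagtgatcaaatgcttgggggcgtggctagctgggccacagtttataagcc
Ifit3: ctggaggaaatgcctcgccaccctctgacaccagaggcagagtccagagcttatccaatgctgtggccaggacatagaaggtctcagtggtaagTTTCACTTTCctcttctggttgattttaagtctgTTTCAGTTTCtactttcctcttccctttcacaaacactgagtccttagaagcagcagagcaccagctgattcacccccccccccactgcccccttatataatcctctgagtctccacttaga
Isg15 holds 3 overlapping matches, Ifit3 2 and Rsad2 1. The letters occur in 978 of 32851 such windows, or 2.98%. All 4 called genes with a window in the table hold them, as do 3 of the 8 measured genes of the list that were not called higher (Bst2, Gbp2 and Stat2). A match is a description of the sequence only.

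Chemokines and cytokines were divided, with 5 of 15 called higher and 5 lower. Cx3cl1, fractalkine, which draws monocytes, had a level of 10.44 with the 3 factors and 7.08 with PDGFBB at 24 h. Il11, a cytokine of the gp130 family that TGF-beta induces in fibroblasts, stood at 7.82 and 5.84, and Cxcl10 was at least 3.54-fold higher. Lower were the monocyte chemokine genes Ccl2, Ccl7 and Ccl9, at -2.61, -1.64 and -1.90. All 3 were also low in the vehicle culture, where Ccl2 had 6.80 beside its 6.43 with the 3 factors and 9.05 with PDGFBB at 24 h, and their double differences lay between -0.51 and -0.34. Acute-phase and complement genes had 4 of 8 called lower and none higher. Serping1, the C1 inhibitor, stood at 10.95 and 13.49 with a double difference of -2.31, whereas Serpina3n, like Saa3, had a double difference of the other sign, 2.96.

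Cell cycle genes leaned lower. Of 28 measured, 10 were called lower and 1 higher, with a median of -0.81 (-1.06 to -0.67 under the alternatives) and a median double difference of -1.22. Tpx2, a spindle assembly factor, had a level of 5.14 with the 3 factors and 7.13 with PDGFBB at 24 h, and since it was not detected with the 3 factors it was at least 2.96-fold lower. Birc5, survivin, stood at 9.37 and 11.06, the mitotic kinase Aurkb at 7.48 and 9.03, the topoisomerase Top2a at 9.06 and 10.61 and Nusap1 at 7.88 and 9.38. These 5 genes passed under all 6 other ways of processing. Cdk1, the kinase that drives entry into mitosis, and Cdc20, the activator of the anaphase-promoting complex, differed by -1.28 and -1.27. Of the genes of DNA replication, Cdc6 was called lower, at -1.10, while Mcm2 to Mcm7 lay between -0.99 and -0.38, Tyms at -0.34 and Rrm2 at -0.06 without a call. The higher gene was Cenpf, at least 2.15-fold higher, which was also high in the vehicle culture at 6.25 beside its 6.39 with the 3 factors. Cdkn1a and Cdkn2b, inhibitors of cyclin-dependent kinases, were the higher genes among the TGF-beta targets that act on the cycle.

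Many late cell cycle genes carry the cell cycle genes homology region, TTTGAA, near their start. The 250 bases before the start are shown for Cdk1 (chr10:69352913-69353162, minus strand) and Cdc20 (chr4:118437344-118437593, minus strand), with matches on either strand in capitals.
Cdk1: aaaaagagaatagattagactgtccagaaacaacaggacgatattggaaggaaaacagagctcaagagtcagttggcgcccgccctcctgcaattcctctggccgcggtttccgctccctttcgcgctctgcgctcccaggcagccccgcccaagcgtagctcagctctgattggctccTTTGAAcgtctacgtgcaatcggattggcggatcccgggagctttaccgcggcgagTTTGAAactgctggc
Cdc20: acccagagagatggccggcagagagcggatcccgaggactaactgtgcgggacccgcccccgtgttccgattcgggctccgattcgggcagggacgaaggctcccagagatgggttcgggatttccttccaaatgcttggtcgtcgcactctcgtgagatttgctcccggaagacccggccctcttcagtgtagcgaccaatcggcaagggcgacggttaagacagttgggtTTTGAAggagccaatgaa
The last match begins 15 bases before the start in Cdk1 and 18 in Cdc20. Of the called lower genes, 4 of 8 with a window hold the letters (Cdk1, Cdc20, Top2a and Prc1), as do 2 of the 16 other measured genes of the list and 5252 of all 32851 windows.

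Ligands and modulators of other pathways differed gene by gene. Among IGF genes, Igfbp6, Igfbp5 and Igfbp3 were called lower and none of 11 higher. Igfbp5 stood at 6.59 with the 3 factors and 8.78 with PDGFBB at 24 h, but at 6.81 in the vehicle culture. Igf1, Igf2 and Igf1r differed by 0.31, -0.13 and 0.49. Of 14 Wnt genes, 2 were called higher and 4 lower. Rspo3, which amplifies Wnt signals, was at least 2.99-fold higher. Of Nkd1 and Nkd2, feedback inhibitors of the pathway, Nkd1 was at least 2.84-fold lower and Nkd2 differed by -1.46 with a double difference of -1.52.

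Guidance genes had 5 of 21 called higher and 5 lower. Robo1, a receptor for Slit proteins, had a level of 8.33 with the 3 factors and 6.24 with PDGFBB at 24 h, and the netrin receptor Unc5b had 11.04 and 9.34. Nrp1 and Slit2 differed by 1.37 and 1.18, while Slit3 differed by -1.55. Sema6d and Sema3e, not detected with the 3 factors, were at least 2.97-fold and 1.68-fold lower. In the Notch list, Hey2 and Dll1 were called higher and Jag2 lower of 7 measured. Hey2, a Notch target, stood at 6.68 with the 3 factors and at 6.67 in the vehicle culture, against 5.33 with PDGFBB at 24 h.

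Metabolic genes were called in both directions. Of 21 glycolysis and hypoxia genes, 1 was called higher and 2 lower, near the 6.03% and 7.72% of all measured genes, so nothing is read from these counts. The lactate exporter Slc16a3 was at least 1.52-fold higher. Egln3, the oxygen sensor that hypoxia induces, was at least 7.87-fold lower, and Adm at least 1.95-fold lower, while Ldha, Vegfa and Slc2a1 differed by 0.23, 0.12 and 0.41. Cholesterol synthesis genes had 2 of 12 called lower, Stard4 at -1.68 and Nsdhl at -1.02, and a median of -0.49 that kept its sign under the alternatives. Genes of the ER stress and amino acid response had 1 of 19 called each way, Slc7a11 at 1.16 and Psat1 at -1.19. None of 12 measured reference genes was called, with Ppia at 14.84 and 14.86 and Actb at 14.78 and 14.71. The 2 other measured probes of Actb differed by 0.30 and 3.91, so its probes did not all give like levels.

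Genes of other cell types differed in no single direction apart from the globins. Of 18 measured macrophage and leukocyte genes, 2 were called higher, Fcgr1 and Aif1, and 4 lower, Cd53, Cd14, Mrc1 and Adgre1. Adgre1, a macrophage surface receptor, had a level of 7.78 with the 3 factors and 8.83 with PDGFBB at 24 h but 6.57 in the vehicle culture, and with the median over its probes its difference was 0.0061. The double difference was at least 1 for 13 of 19 genes of this list and -1 or below for none, beside 7.4% and 5.79% of all measured genes. Between the vehicle and control cultures, which enter it, 7 of 19 were called lower in the vehicle culture and none higher, with a median of -0.87. Cardiomyocyte genes had 4 of 13 called higher and 2 lower. Actc1, cardiac actin, stood at 8.26 and 6.51 but at 8.45 with PDGFBB at 12 h. Nppa, the atrial peptide gene, was not detected with the 3 factors and at least 1.35-fold lower, but stood at 11.19 with PDGFBB at 12 h. Of 10 endothelial genes, Tek and Nfatc1 were called higher and Emcn, Icam2 and Esam lower. Tek had 8.91 in the vehicle culture, above its 8.19 with the 3 factors. Emcn was detected neither with the 3 factors nor with vehicle, so nothing is read from its double difference of 0.54.

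**Figure D5:**
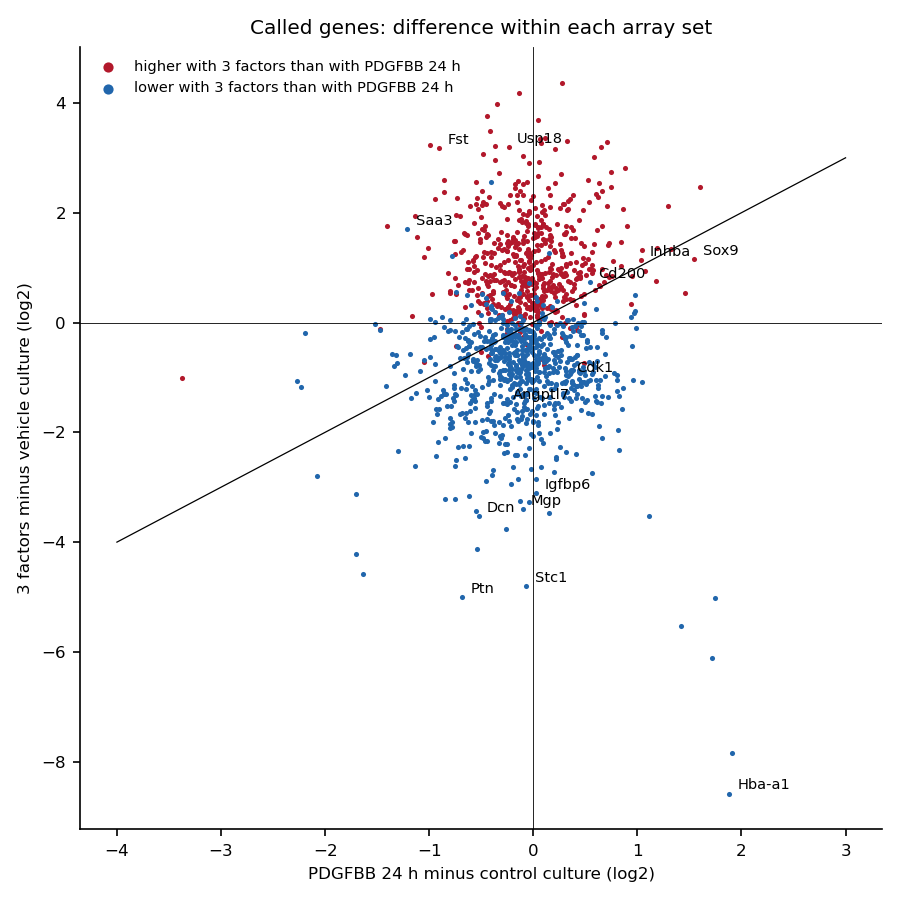
Genes called between the 3 factors and PDGFBB at 24 h, placed by the 3 factors minus the vehicle culture (vertical axis, log2) and by PDGFBB at 24 h minus the control culture (horizontal axis, log2), 1 array each, with the line marking equal differences. Mgp, Dcn and Igfbp6 lie far below the line, with double differences of -3.30, -3.01 and -3.13, as do Ptn and Stc1, whose 3-factor levels were below detection, while Saa3 lies above it at 2.91.

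The 3-factor culture can also be set against the vehicle culture, a comparison that shares its array with the one above, so that like directions add no support. Acta1 differed from vehicle by 3.36, Tnfrsf11b by 4.37, Has2 by 2.37, Dcn by -3.53, Mgp by -3.40 and Mylk by -3.21. Saa3 and Serpina3n went the other way, at 1.70 and 2.56 against vehicle. For the TGF-beta targets this comparison called 8 of 21 higher and none lower, and for the cell cycle genes none of 28 higher and 7 lower. Over all measured genes it called 5.29% higher and 5.05% lower. PDGFBB at 24 h against the control culture called 1 of 19 TGF-beta targets higher and none of 28 cell cycle genes in either direction. Over all measured genes that comparison called only 0.412% higher and 0.815% lower, so such low counts say little about these lists. These comparisons share the arrays that enter the main one.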

How the data were processed

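RNA was hybridized to Illumina mouse bead arrays of 45281 probes, 1 array a pool. The deposited files hold a non-normalized intensity and a detection p-value per probe, exported with BeadStudio 3.3 per the submitters' processing notes, and the authors' processed intensity, whose distributions are identical within 2 sets of 4 arrays. The method behind these sets is not named in the labels used. The non-normalized intensities were corrected and quantile-normalized over all 8 arrays with limma 3.58.1 in R 4.3.3 (neqc, offset 16), giving log2 levels from the deposited intensities, and tested on simulated data. Summaries used Python 3.11.15. GEO's platform annotation gave 1 symbol for 34885 probes, updated through RefSeq; each gene took its probe of highest mean level. Named were up to 12 called genes a direction detected on both arrays and 8 by fold bound, each also past 1 against PDGFBB at 12 h, up to 6 called and 2 uncalled members of each of 38 lists, and a panel of 35. Other list members named were chosen after their values were seen. The comparison, members and lists were chosen with earlier results of these data known. Of 749 list genes, 68 have no probe in the table and were not analysed here. The number of arrays limits the precision: 14707 probes were detected with the 3 factors and 16022 with PDGFBB at 24 h. Alternatives were another offset, no background correction, median centring, 6 cultures only, other detection and size limits, the median over probes, the 12 h culture, and the authors' values.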

Additional observations from a re-analysis of the deposited data

Results flagged for a closer look

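Probes without a single gene symbol were left out of every comparison above, and they also differed between the 2 cultures. Of 2226 such probes measured, 176 were at least 1 higher on the log2 scale with the 3 factors than with PDGFBB at 24 h and 191 were at least 1 lower, or 16.5%, beside 13.7% of the named genes. They stand out because they are signal in data that the report does not use, and no gene or role is given to them here.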

How the results depend on the processing

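With 1 array a side no result has a test, and what follows are counts. Against 573 genes called higher, the count was 323 without background correction, 312 with an offset of 50, 356 with median centring, 189 and 72 at size limits of 1.5 and 2, and 147 in the authors' values. Against 734 called lower it was 454, 437, 300 and 147 without background correction, with an offset of 50 and at the 2 size limits, and median centring (1026) and the authors' values (865) stayed within 1.5 times. For the within-set double difference, 741 higher genes became 473, 459, 1304, 306, 126 and 433 without background correction, with an offset of 50, with median centring, at 1.5, at 2 and in the authors' values, and 580 lower genes became 371, 366, 331, 212, 78 and 344. It has no value for the mean of both PDGFBB cultures. Of 169 called genes that were named by the rule, 169 kept their call with 6 cultures, a detection p of 0.05 or no filter, 161 with the median over probes, 154 against the mean of both PDGFBB cultures, 152 with median centring, 145 against PDGFBB at 12 h, 132 without background correction, 130 with an offset of 50 and 129 in the authors' values. Reversed were Actc1 (-0.19) and Rsad2 (-0.0261) against 12 h, Xist against 12 h (-2.59) and against the mean of both (-0.41), and Adgre1 with the median over probes (0.0061). Of 37 list medians, 17 changed sign under at least 1 alternative. The cause of these shifts was not tested. No paired analysis was possible because each group has 1 array.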

Other observations

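Some genes outside the lists, picked after their values were seen, also stood apart. They were picked one by one and say nothing of their groups, in which other genes (Il1rn, Cxcl1, Cd14, Bmp4 and Ptn among them) were called lower. Il1b, the inflammatory cytokine, had a level of 8.10 with the 3 factors and 5.40 with PDGFBB at 24 h, and Il1a was at least 3.23-fold higher. The co-stimulatory receptor genes Cd40 and Cd86 stood at 8.60 and 8.60 with the 3 factors, against 6.58 and 6.63 with PDGFBB at 24 h. Acod1, the enzyme that makes itaconate, differed by 1.76, the receptor gene Gpr84 by 1.58 and Tnfsf13b, the B cell survival factor BAFF, by 2.34. Sphk1, a sphingosine kinase, differed by 2.15, Hbegf by 1.58 and Pgf, placental growth factor, was at least 3.72-fold higher.

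Lipoprotein lipase, Lpl, had a level of 9.89 with the 3 factors and 12.46 with PDGFBB at 24 h. Hsd11b1, which regenerates active glucocorticoid, stood at 6.56 and 8.82, and the peptidase gene Dpp4 at 7.13 and 9.85. Hoxd8 was at 6.57 and 9.48, and Hoxd4 was at least 3.45-fold lower. Replication-dependent histone genes were among the lower ones, with H2ac22 at -2.37, H2ac21 at -2.26 and H2ac15 at -1.90, as were the kinetochore genes Cenpm at -2.05 and Spc25 at -2.11. The imprinted noncoding RNA gene Rian was at least 3.74-fold higher, but it had 7.71 in the vehicle culture beside its 7.18 with the 3 factors.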
